A study of Mus musculus with 80 samples.

Results

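Cells that run short of an amino acid switch on a shared set of genes, and 10 of these were followed while mouse embryonic stem cells (ESCs) were moved from serum to 2i medium. The set holds the transcription factor Atf4, its partners and antagonists Ddit3 and Trib3, the stress targets Asns, Chac1 and Sesn2, and 4 enzymes that make serine or pass its carbon to folate, Psat1, Phgdh, Shmt2 and Mthfd2. They were taken by symbol from the 25965 rows of the expression table, and all 10 were found. All 10 also passed the filter on low values, a mean log2 value of 0 or more over the 12 libraries, which 11376 rows passed.

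The cells were wild-type ESCs of the E14 line, grown in medium with fetal calf serum and LIF. They were then switched to 2i, in which N2B27, a defined base without serum, carries LIF and a pair of inhibitors, PD0325901 against MEK and CHIR99021 against GSK3. RNA-seq was made on 3 libraries in serum and on 3 after each of 6, 24 and 72 h in 2i, and ChIP-seq for H3K9me2, the dimethyl mark on lysine 9 of histone H3, on 2 libraries each from serum, 24 h in 2i and long-term 2i (LT2i). Serum, base medium and both inhibitors changed in 1 step and cannot be told apart, and a single cell line was measured. The RNA libraries are described as biological replicates, but whether they came from separate cultures is not given, so p-values measure the spread between these libraries.

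In the pathway, any of the eIF2α kinases (GCN2 for uncharged tRNA, PERK for unfolded protein in the endoplasmic reticulum, PKR and HRI for other stresses) slows translation in general while the Atf4 mRNA is translated more. ATF4 then pairs with C/EBP-family proteins and binds a composite element in the promoters of genes for amino acid synthesis, transport and tRNA charging. PHGDH, PSAT1 and PSPH make serine from a glycolytic intermediate, and SHMT2 and MTHFD2 carry its carbon into the mitochondrial folate cycle. Mouse ESCs are known for a further source, threonine, whose breakdown to glycine starts with TDH. Much of ATF4 control is translational, and the values here are mRNA only.

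The core of the composite element, TGATGNAA, was searched on both strands (TTNCATCA on the reverse) in the RefSeq promoter windows of GRCm38.p6, 250 bases before to 50 after each start. It was present for 3 of the 10 genes, against 3.97% of all 32851 windows and 2.49% of the 7752 tested genes that had a window. The Asns match begins 23 bases before the start and the Chac1 match 193 bases before it, so the 250 bases upstream of both are shown, 5′ to 3′ on the gene's strand, with the match in capitals. Asns is encoded on the minus strand (chr6:7693210-7693459) and Chac1 on the plus strand (chr2:119350992-119351241).
Asns: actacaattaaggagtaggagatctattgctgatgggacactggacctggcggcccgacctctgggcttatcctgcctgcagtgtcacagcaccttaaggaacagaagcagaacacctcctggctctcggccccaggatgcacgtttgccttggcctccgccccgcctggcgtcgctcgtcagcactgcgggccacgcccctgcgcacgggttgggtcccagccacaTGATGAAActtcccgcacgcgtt
Chac1: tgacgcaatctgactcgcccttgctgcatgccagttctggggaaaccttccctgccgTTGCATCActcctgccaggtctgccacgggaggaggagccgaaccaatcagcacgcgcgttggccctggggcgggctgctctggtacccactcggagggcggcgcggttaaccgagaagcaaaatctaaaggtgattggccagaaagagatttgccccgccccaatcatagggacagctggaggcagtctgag

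The Trib3 match lies 15 bases after the start. Among the other ATF4 targets listed for this work, 7 of 18 genes with a window held a match (38.9%), as did 5 of 12 tRNA synthetases (41.7%), 3 of 12 amino acid transporters (25.0%), 1 of 17 genes of the endoplasmic reticulum list (5.88%) and 0 of 20 other serine, glycine and one-carbon enzymes. The 30 bases around the match are given for Trib3 (chr2:152344028-152344057, minus strand) and, from the target list, for 4 of the 7 genes with a match, Nupr1 (chr7:126625562-126625591, minus), Jdp2 (chr12:85599372-85599401, plus), Atf3 (chr1:191183425-191183454, minus) and Pck2 (chr14:55540152-55540181, plus), and for Herpud1 (chr8:94386306-94386335, plus), the single match in the endoplasmic reticulum list.
Trib3: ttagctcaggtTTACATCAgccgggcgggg
Nupr1: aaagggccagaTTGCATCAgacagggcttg
Jdp2: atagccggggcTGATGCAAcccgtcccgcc
Atf3: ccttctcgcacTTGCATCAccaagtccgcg
Pck2: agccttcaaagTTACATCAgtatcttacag
Herpud1: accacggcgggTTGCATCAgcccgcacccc
Gdf15 and Ddit4, whose 24 h rises exceeded that of Pck2, held no match and are not shown. A match did not go with a rise in every gene, since Slc7a7, 1 of the 3 transporters with one, was lower than serum at all 3 times. The genes shown were chosen after their values were seen. A match of these letters is a description of the window and not a binding site, and the 7 genes without one lack only these letters in this stretch.

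After the change of medium, all 10 genes had higher mRNA values at 24 h and at 72 h than in serum, while 5 of them, Atf4, Asns, Chac1, Trib3 and Ddit3, were already higher at 6 h (limma, Benjamini-Hochberg adjusted over 11376 genes). The background share of tested genes called higher was 8.24%, 33.6% and 24.5% in the order 6, 24 and 72 h. In the same order the 10 genes had median log2 changes of 0.38, 1.67 and 1.19, where the medians of all tested genes were 0.01, 0.10 and -0.01. Without overlap with serum, the 3 libraries lay above it for 7 genes at 6 h and for 10 at both later times, against 23.5%, 33.8% and 30.5% of all tested genes.

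**Figure D1:**
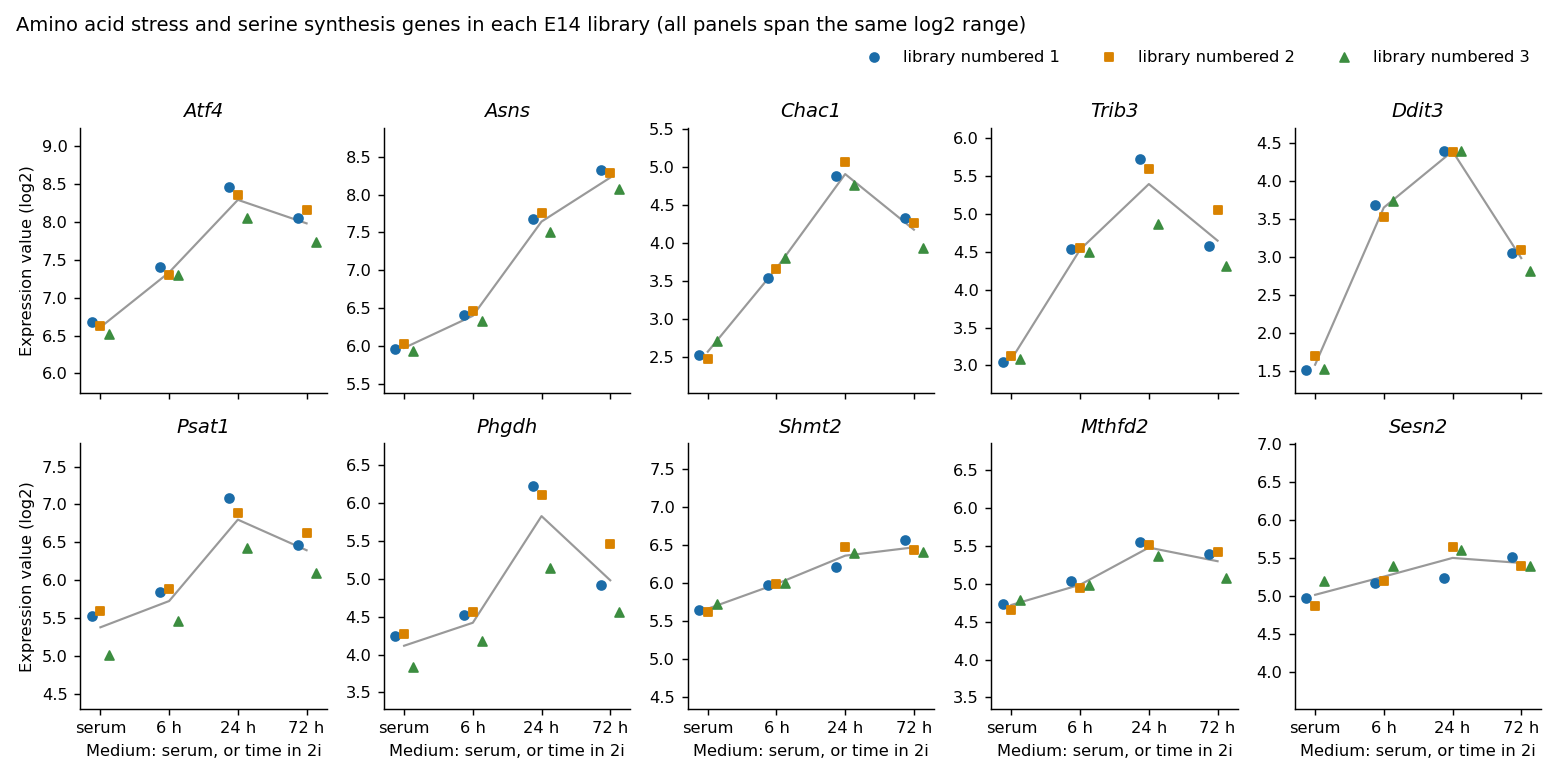
Each panel gives the deposited log2 expression value of 1 gene (vertical axis) in the 12 E14 libraries, by medium and time (horizontal axis). Symbols mark the library number and the grey line joins the group means; Ddit3 peaks at 24 h with 3 libraries at 4.39 to 4.40, and Asns is at its highest, 8.07 to 8.32, at 72 h.

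Atf4 (chr15, 80255184 to 80257540, GRCm38) encodes the transcription factor at the centre of the response. Its log2 values were 6.68, 6.63 and 6.52 in serum, 7.40, 7.30 and 7.30 at 6 h, 8.46, 8.36 and 8.05 at 24 h, and 8.05, 8.15 and 7.74 at 72 h. Every 2i library lay above every serum library, and the 24 h and 72 h libraries overlapped. The log2 change from serum was 0.72 at 6 h (SE 0.15, adjusted p = 0.00597), 1.68 at 24 h (adjusted p = 3.94e-06) and 1.37 at 72 h (adjusted p = 1.6e-05), or 1.65-fold, 3.21-fold and 2.58-fold. The step from 6 to 24 h was 0.96 (adjusted p = 0.00032), and that from 24 to 72 h was -0.31 (95% interval -0.63 to 0.01, adjusted p = 0.12).

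Ddit3 (chr10, 127290774 to 127296288) encodes CHOP, a C/EBP-family factor linked to prolonged stress. It stood at 1.51, 1.70 and 1.53 in serum, 3.69, 3.53 and 3.74 at 6 h, 4.40, 4.39 and 4.40 at 24 h, and 3.05, 3.10 and 2.81 at 72 h. None of the 4 groups overlapped. With a log2 change of 2.07 at 6 h (SE 0.11, adjusted p = 3.38e-07) it ranked 28 of 11376 genes by size of rise, and at 24 h the change was 2.81 (adjusted p = 1.45e-08), or 7.02-fold. It then fell by 1.41 between 24 and 72 h (adjusted p = 6.79e-06), to a level still 1.41 above serum. Ddit3 overlaps Mars on the opposite strand, and the library kit keeps no strand, so reads from the shared stretch cannot be told apart. Mars itself changed by 0.17 at 6 h (adjusted p = 0.476), 0.85 at 24 h and 0.62 at 72 h.

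Trib3 (chr2, 152337422 to 152344032) encodes a pseudokinase that ATF4 and CHOP induce and that binds ATF4 in return. Serum libraries read 3.05, 3.12 and 3.08, the 6 h libraries 4.54, 4.55 and 4.50, the 24 h libraries 5.72, 5.59 and 4.87, and the 72 h libraries 4.58, 5.05 and 4.31. The third library at 24 h was lower than the other two and fell below the highest library at 72 h. The change from serum was 1.45 at 6 h (SE 0.22, adjusted p = 0.000904), 2.31 at 24 h (adjusted p = 7.23e-06) and 1.57 at 72 h (adjusted p = 0.000125). Between 24 and 72 h it fell by 0.75 (adjusted p = 0.0248), a call lost without any 1 of 4 libraries (numbers 1 or 2 at 24 h, numbers 1 or 3 at 72 h), with adjusted p of 0.0812 to 0.0968, and when only the 24 and 72 h libraries were fitted (adjusted p = 0.139).

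Chac1 (chr2, 119351229 to 119354381) encodes an enzyme that breaks down glutathione and is a target of ATF4. The values were 2.52, 2.47 and 2.71 in serum, 3.54, 3.66 and 3.80 at 6 h, 4.89, 5.07 and 4.77 at 24 h, and 4.33, 4.27 and 3.93 at 72 h. The 4 groups were separate from each other. Chac1 was 1.10 higher at 6 h (SE 0.13, adjusted p = 0.00018), 2.34 higher at 24 h (adjusted p = 1.92e-07), or 5.08-fold, and 1.61 higher at 72 h (adjusted p = 2.3e-06) on the log2 scale. It fell by 0.74 from 24 to 72 h (adjusted p = 0.00203).

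Asns (chr6, 7675169 to 7693254) encodes asparagine synthetase, and its promoter match is the first shown above. In serum the libraries read 5.96, 6.03 and 5.94, at 6 h 6.41, 6.46 and 6.33, at 24 h 7.68, 7.75 and 7.50, and at 72 h 8.32, 8.28 and 8.07. It rose at each step, with no overlap between groups. The log2 change from serum was 0.42 at 6 h (SE 0.11, adjusted p = 0.0299), 1.66 at 24 h (adjusted p = 7.53e-07) and 2.25 at 72 h (adjusted p = 5.1e-08), or 4.75-fold. The 6 h call was lost when any 1 of the 6 libraries compared was left out (log2 change 0.39 to 0.46, adjusted p = 0.0657 to 0.12). From 24 to 72 h Asns rose by 0.58 (adjusted p = 0.00334), and it was the 1 gene of the 10 called higher in that step. That call was lost when only the 24 and 72 h libraries were fitted (adjusted p = 0.0934).

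Phgdh (chr3, 98313170 to 98339990) encodes the first enzyme of serine synthesis. Its values were 4.24, 4.27 and 3.84 in serum, 4.52, 4.56 and 4.18 at 6 h, 6.23, 6.11 and 5.14 at 24 h, and 4.92, 5.46 and 4.56 at 72 h. Serum and 6 h overlapped, and so did 24 and 72 h. The log2 change was 0.30 at 6 h (SE 0.29, 95% interval -0.33 to 0.94, adjusted p = 0.628), 1.71 at 24 h (adjusted p = 0.000434) and 0.87 at 72 h (adjusted p = 0.0271). The 72 h call was lost without serum library 3, 72 h library 1 or 72 h library 2, with log2 changes of 0.73, 0.89 and 0.63. Between 24 and 72 h Phgdh fell by 0.85 (adjusted p = 0.0469), near the threshold. The call was lost under 15 of 24 settings, the main fit being 1 of the 24. A minimum log2 change of 1 removed it by construction, and under the other 14, of which 10 left out 1 library, the adjusted p was 0.0513 to 0.168.

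Psat1 (chr19, 15904678 to 15947337) encodes the aminotransferase of the next step. The libraries read 5.53, 5.59 and 5.02 in serum, 5.84, 5.88 and 5.46 at 6 h, 7.09, 6.89 and 6.42 at 24 h, and 6.47, 6.62 and 6.10 at 72 h. Again serum overlapped with 6 h, and 24 h with 72 h. The log2 change was 0.34 at 6 h (SE 0.22, 95% interval -0.13 to 0.82, adjusted p = 0.382), 1.42 at 24 h (adjusted p = 0.000219) and 1.01 at 72 h (adjusted p = 0.0024). From 24 to 72 h it was -0.40 (adjusted p = 0.168). The library numbered 3 was the lowest of its group in all 4 groups for Atf4, Asns, Psat1 and Phgdh, and in 26 of the 40 combinations of gene and group over the 10 genes. With number 3 dropped from every group, 5, 10 and 10 genes were called higher at 6, 24 and 72 h, the counts given above. The median changes of the 10 were then 0.39, 1.74 and 1.21, against 0, 0.12 and 0 for all tested genes.

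Shmt2 (chr10, 127517123 to 127522444) encodes the mitochondrial enzyme that splits serine into glycine and a folate-bound carbon. Values of 5.64, 5.62 and 5.72 in serum compared with 5.97, 5.99 and 6.00 at 6 h, 6.21, 6.47 and 6.40 at 24 h, and 6.56, 6.44 and 6.41 at 72 h. All 9 libraries in 2i lay above serum, and the later 2 times overlapped. The log2 change was 0.33 at 6 h (SE 0.10, adjusted p = 0.052), 0.70 at 24 h (adjusted p = 0.00014) and 0.81 at 72 h (adjusted p = 5.37e-05). The 6 h value lay close to the threshold and was called in a fit of only the libraries compared (adjusted p = 0.0061), with no variance trend (0.0488), and without 24 h library 1 (0.03) or 3 (0.0396). The 3′ end of Shmt2 overlaps Ndufa4l2 on the other strand, whose value rose by 2.38 at 24 h and 3.21 at 72 h from a serum mean of -0.41, below that of Shmt2.

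Mthfd2 (chr6, 83305691 to 83317606) encodes the mitochondrial dehydrogenase and cyclohydrolase that acts on the carbon SHMT2 releases. It read 4.73, 4.65 and 4.78 in serum, 5.04, 4.94 and 4.98 at 6 h, 5.55, 5.51 and 5.37 at 24 h, and 5.39, 5.42 and 5.08 at 72 h. Each 2i group lay above serum without overlap. The log2 change was 0.27 at 6 h (SE 0.11, adjusted p = 0.148), 0.75 at 24 h (adjusted p = 0.000156) and 0.58 at 72 h (adjusted p = 0.00111), or 1.69-fold and 1.49-fold at the later times. The 6 h change was called after quantile normalization (0.33, adjusted p = 0.0306) and in a fit of only the libraries compared (adjusted p = 0.0203).

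Sesn2 (chr4, 132492032 to 132510501) encodes the leucine-binding sestrin that restrains mTORC1 through GATOR2. In serum it stood at 4.97, 4.87 and 5.20, at 6 h at 5.17, 5.19 and 5.40, at 24 h at 5.24, 5.65 and 5.61, and at 72 h at 5.51, 5.40 and 5.39. It had the smallest 24 h change of the 10 genes, 0.49 (SE 0.13, adjusted p = 0.00761), after 0.24 at 6 h (adjusted p = 0.298), and the change at 72 h was 0.43 (adjusted p = 0.0196). Sesn2 overlaps Gm12981 on the same strand. Changes at 24 h also moved with the span of the gene over the whole table, from a median of 0.53 in the shortest of 5 equal classes of genes to -0.41 in the longest, and 4 of the 10 genes lie in the shortest class and 0 in the longest. With that trend removed, 8 of the 10 genes were called higher at 24 h, and Shmt2 (0.30, adjusted p = 0.0983) and Sesn2 (0.34, adjusted p = 0.0548) were not. The median change of the 10 was then 1.54, against -0.01 for all tested genes. Sesn2 was also not called at 24 h after quantile normalization (0.40, adjusted p = 0.0674), and its 72 h call was lost without serum library 1 or 2 or 72 h library 1.

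**Figure D2:**
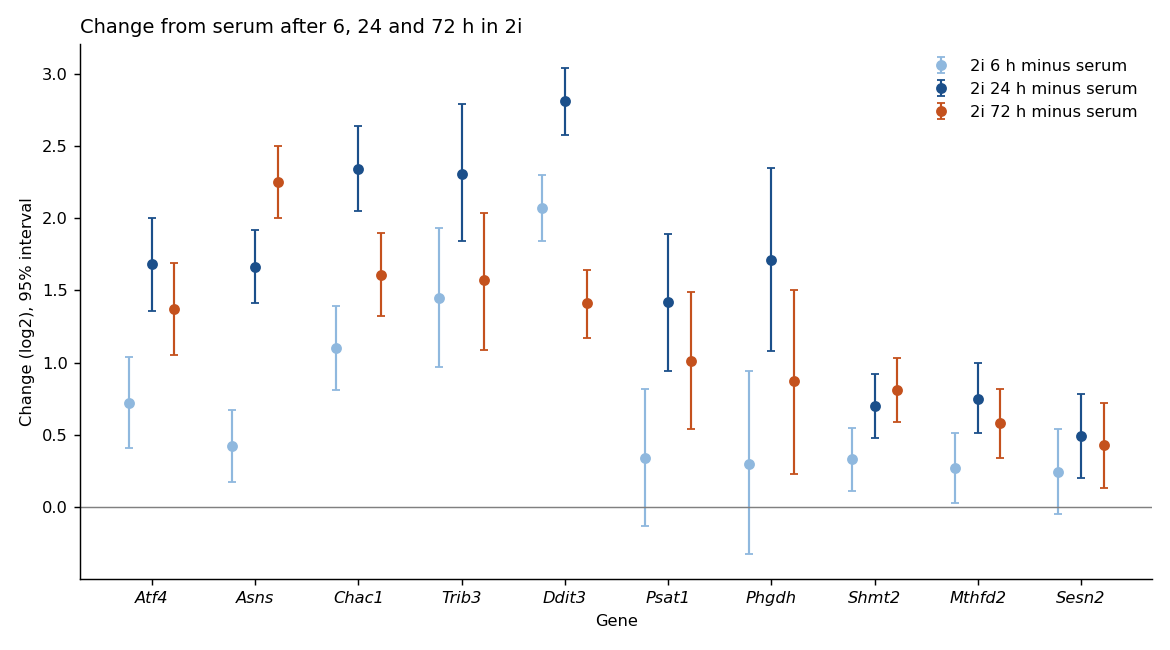
The change from serum on the log2 scale (vertical axis) is shown for each gene (horizontal axis) after 6, 24 and 72 h in 2i, as a point with its 95% interval from the limma fit over 12 libraries. At 24 h the points run from 0.49 for Sesn2 to 2.81 for Ddit3, and at 72 h Asns is highest at 2.25.

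Between 6 and 24 h, 9 of the 10 rose, with log2 steps of 0.38 for Shmt2 to 1.41 for Phgdh, and Sesn2 had a step of 0.25 (adjusted p = 0.126), where 31.5% of tested genes were called higher. Without 24 h library 1 the Sesn2 step was 0.38 and was called (adjusted p = 0.0276), and with only the 6 and 24 h libraries fitted the Shmt2 call was lost (adjusted p = 0.0513). The Atf4 step was 0.28 after quantile normalization (adjusted p = 0.0436), and those of Asns, Shmt2 and Mthfd2 were 0.74, 0.07 (adjusted p = 0.694) and 0.32. Once the trend with gene span was removed, the steps were 0.46 for Atf4, 0.76 for Chac1, 0.49 for Trib3, 0.32 for Ddit3 (adjusted p = 0.0406), 0.29 for Mthfd2 and -0.05 for Shmt2 (adjusted p = 0.801). Between 24 and 72 h, Ddit3, Chac1, Trib3 and Phgdh fell and Asns rose, against 14.6% of tested genes called lower and 15.2% called higher. The other 5, Atf4, Psat1, Shmt2, Mthfd2 and Sesn2, had steps of -0.40 to 0.11 that did not pass the test. Without 24 h library 3, Atf4 (-0.43, adjusted p = 0.0223) and Psat1 (-0.59, adjusted p = 0.0294) were called lower in this step, and Psat1 was also called lower with number 3 dropped from every group (-0.45, adjusted p = 0.015). Of the 4 falls, those of Ddit3 and Chac1 stayed called whichever 1 of the 12 libraries was left out. Without the span trend the falls of Chac1 and Trib3 were -0.42 and -0.47, both still called.

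**Figure D3:**
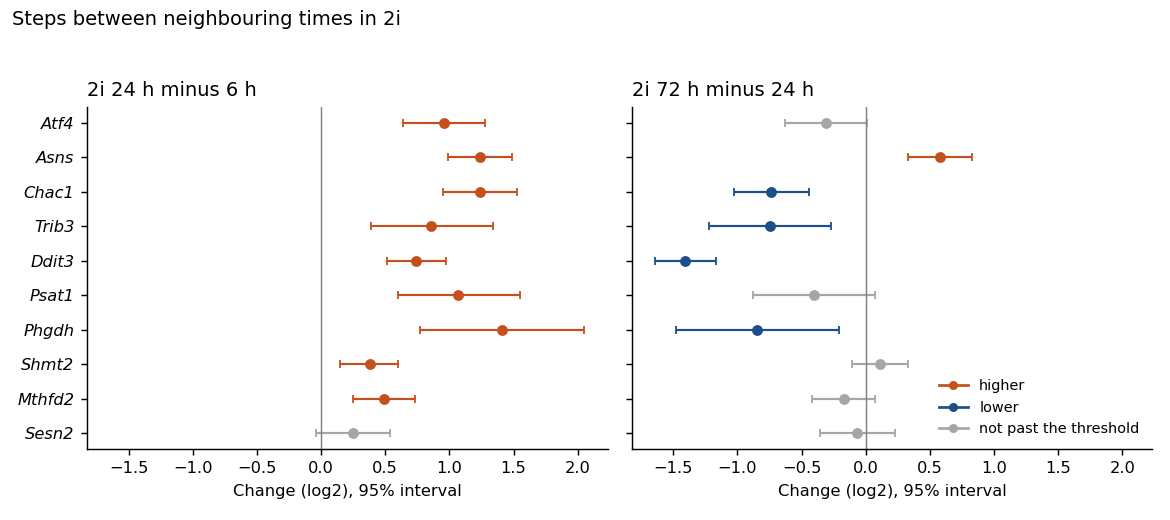
Points with 95% intervals give the log2 step of each gene (vertical axis) from 6 to 24 h (left) and from 24 to 72 h (right). The steps are positive for all 10 genes on the left, and on the right they run from -1.41 for Ddit3 to 0.58 for Asns.

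Over the 12 libraries, with each gene set to its serum mean, the members most alike were Shmt2 and Mthfd2, with a root-mean-square difference of 0.162 on the log2 scale, then Mthfd2 and Sesn2 (0.217), Psat1 and Phgdh (0.22), and Shmt2 and Sesn2 (0.234). Chac1 and Trib3 differed by 0.269, and Atf4 was nearest to Psat1 (0.324). The least alike were Ddit3 and Sesn2 (1.563). Among all tested genes, the nearest to Atf4 were Prkag2 (0.073), Nagk and Cyp51, the nearest to Asns were H2afy (0.124), Scarb1 and Ppp2r2c, and the nearest to Chac1 were Rnf157 (0.209), Pltp and AI316807. Of these outside genes, Fbxl2 was nearest to Trib3 (0.284, against 0.269 for the member Chac1). Dkk3 was nearest to Ddit3 (0.271), Cab39l to Psat1 (0.1) and Sat1 to Phgdh (0.123). For Shmt2 it was Plbd2 (0.071), for Mthfd2 Lrrc28 (0.069), and for Sesn2 Vps37c (0.08), followed by Slc7a5 (0.087) and Nprl3 (0.102).

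Most of the other genes listed here as ATF4 targets moved with the 10. Of 20 listed, 17 were tested, and 12, 16 and 16 were called higher at 6, 24 and 72 h, against 8.24%, 33.6% and 24.5% of all tested genes. None of the 17 was called lower at any time, and the median log2 changes were 0.77, 1.48 and 1.48. The list was drawn up with earlier results of these data known. Amino acid transporters and tRNA synthetases, classes that ATF4 also acts on, were listed apart. At 24 h, 5 of 14 transporters and 5 of 20 synthetases were called lower, and 7 and 9 higher, against 29.1% and 33.6% of all tested genes. The 1 gene not called at the later times was Cth, with -0.19 and 0.14. Vldlr, Fgf21 and Cdsn were under the filter. From serum to 72 h the log2 mean of Cdsn went down (-0.10 to -0.96), and those of Vldlr (-2.80 to 0.37) and Fgf21 (-4.23 to -1.11) went up. Nupr1, a stress-induced chromatin protein, had a log2 change of 2.54, 3.88 and 3.78 at 6, 24 and 72 h (adjusted p = 5e-09 at 24 h). Gdf15, a secreted stress hormone, rose by 1.49, 3.59 and 2.51, and Jdp2, a bZIP repressor, by 1.31, 3.25 and 3.28. The bZIP factor Atf3 rose by 1.75, 2.85 and 2.27, and Atf5 by 0.72, 1.48 and 1.06. Cebpb, a dimer partner of ATF4, changed by 0.92 at 6 h (adjusted p = 0.0651, and 0.022 without number 3), 1.96 at 24 h and 0.89 at 72 h (adjusted p = 0.0285). Pck2, the mitochondrial enzyme that makes phosphoenolpyruvate, rose by 0.81, 2.36 and 2.35.

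Among the 23 tested enzymes of serine, glycine and one-carbon metabolism outside the 10, 4 were called higher and 2 lower at 6 h, 4 and 5 at 24 h, and 6 and 5 at 72 h. Over all tested genes 8.24% were called higher and 6.01% lower at 6 h, 33.6% and 29.1% at 24 h, and 24.5% and 26.0% at 72 h, and the counts of this and the lists that follow are to be read against these shares. The median changes were -0.01, 0.12 and -0.08. The 24 h count changed when number 3 was dropped from every group, to 11 higher and 4 lower with a median of 0.29, and with the span trend removed 3 were lower at 72 h. Psph, the last enzyme of serine synthesis, was 0.18 from serum at 6 h (adjusted p = 0.831) and rose by 1.85 at 24 h (adjusted p = 0.000439) and 1.42 at 72 h, so that all 3 serine synthesis enzymes were called higher at 24 and 72 h. The cytosolic counterparts of Shmt2 and Mthfd2 did not rise. Shmt1 had log2 changes of -0.28, -0.27 and -0.13 and Mthfd1 of -0.02, -0.31 and -0.11, with both called lower at 24 h (adjusted p = 0.043 and 0.023), calls that were lost without library number 3. Mthfd1 was also no longer called with the span trend removed (-0.01). Mthfd1l, a mitochondrial partner, changed by -0.02, 0.12 and 0.26 (adjusted p = 0.0592 at 72 h). With the span trend removed it was called higher at 24 h (0.54, adjusted p = 0.00216) and 72 h (0.32, adjusted p = 0.0403), and at 72 h also after quantile normalization (0.29, adjusted p = 0.0454) and median centring (0.27, adjusted p = 0.0467).

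Tdh, the threonine dehydrogenase of mouse ESCs, was lower at 6 h (-0.77, adjusted p = 0.0106), at 0.16 at 24 h (adjusted p = 0.413) and higher at 72 h (0.46, adjusted p = 0.0406). Gcat, the next enzyme of threonine breakdown, rose by 1.69 at 24 h and 1.37 at 72 h. Gldc, of the glycine cleavage system, was at -0.18 and -0.27 and then lower at 72 h (-0.70, adjusted p = 0.000376). Its 24 h value was -0.42 and called after quantile normalization (adjusted p = 0.0426) and 0.08 with the span trend removed. Aldh1l1, a cytosolic folate enzyme that releases carbon dioxide, had the greatest rise of the list, 0.58, 2.84 and 3.74, from a serum mean of -0.31.

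Of the 20 cytosolic aminoacyl-tRNA synthetases, which charge tRNAs, 3 were called higher at 6 h, 9 higher and 5 lower at 24 h, and 9 higher and 5 lower at 72 h, where 33.6% and 24.5% of all tested genes were called higher at 24 and 72 h. Sars rose by 1.29 at 24 h and 0.95 at 72 h, Cars by 1.28 and 1.16, and Gars by 0.86 and 0.71. Without number 3, 10 were higher and 1 lower at 24 h, the lower calls of Farsa, Hars, Rars and Vars being lost. Between 24 and 72 h none passed the limma test, and 3 had an unadjusted p under 0.05, while without number 3 there were 1 higher and 4 lower. Of 14 tested amino acid transporters, 6 were higher and 3 lower at 6 h, 7 and 5 at 24 h, and 7 and 4 at 72 h. Slc43a1, a neutral amino acid transporter, rose by 2.21, 1.01 and 0.47, while Slc7a7 (-2.66, -2.23 and -2.99) and the cationic transporter Slc7a3 (-1.84, -1.83 and -1.49) fell. Slc38a2 went from a log2 mean of 6.31 in serum to 5.41, 4.83 and 4.76 at 6, 24 and 72 h, without overlap with serum. Slc3a2, the heavy chain of several exchangers, rose by 0.32, 0.89 and 0.56, and its light chain Slc7a5 by 0.35 at 24 h (adjusted p = 0.0378) and 0.51 at 72 h after 0.26 at 6 h (adjusted p = 0.252). After quantile normalization the Slc3a2 call at 6 h (0.41, adjusted p = 0.0783) and the Slc7a5 call at 24 h (0.17, adjusted p = 0.447) were lost. The cystine exchanger Slc7a11 was under the filter, with log2 means of -3.02 in serum and -1.91, -3.58 and -2.56 in 2i.

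In the list of 10 eIF2 kinases, regulators and phosphatase subunits, none passed the limma test at 6 h (2 had an unadjusted p under 0.05), 1 was higher and 4 lower at 24 h, and 3 higher and 2 lower at 72 h. Eif2ak4, which encodes GCN2, was at 0.25, 0.24 and then 0.59 (adjusted p = 0.00443 at 72 h), and with the span trend removed it was also called at 24 h (0.61, adjusted p = 0.000149). Eif2ak3, which encodes PERK, was at -0.22, -0.94 (adjusted p = 0.000963) and -0.39, the last called without number 3 (-0.40, adjusted p = 0.0276). Gcn1l1, which encodes the GCN2 activator, was lower at 24 h (-0.95) and 72 h (-0.78), as was the kinase gene Eif2ak1 (-0.98 and -0.66). Ppp1r15a, the inducible phosphatase subunit GADD34, was at 0.16 at 6 h and rose by 0.87 at 24 h and 1.11 at 72 h.

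Of 20 chaperones and other genes of the unfolded protein response in the endoplasmic reticulum, 1 was higher and 2 lower at 6 h, 1 and 9 at 24 h, and 1 and 3 at 72 h, with background shares of 8.24%, 33.6% and 24.5% called higher and 6.01%, 29.1% and 26.0% called lower. Hspa5, the chaperone BiP, was at -0.13 at 6 h and fell by 0.71 at 24 h (adjusted p = 0.00376) and by 0.56 at 72 h. Xbp1 was lower at 6 h (-1.20) and 24 h (-0.69), and at -0.37 at 72 h (adjusted p = 0.18), or -0.48 and called with the span trend removed (adjusted p = 0.0082). Under that setting the lower calls in the list were 4 at 6 h and 5 at 72 h. The gene called higher at all 3 times was Herpud1 (0.97, 1.51 and 1.22), whose promoter match is shown above. Of 12 tested sestrin and GATOR genes beside Sesn2, 1 was higher and 2 lower at 6 h, 3 and 2 at 24 h, and 2 and 3 at 72 h. Sesn1 was at 0.48 (adjusted p = 0.0126), -0.08 and 0.65 (adjusted p = 0.000519), and its 24 h value became 0.31 and called with the span trend removed (adjusted p = 0.0334). The mTORC1 inhibitor gene Ddit4l was higher at 24 h (0.88, adjusted p = 0.00372). Nprl2 was lower at 6 h (-0.68) and higher at 24 h (0.37, adjusted p = 0.0322). The 24 h call of Nprl2 was lost with the span trend removed (-0.08, adjusted p = 0.573).

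**Figure D4:**
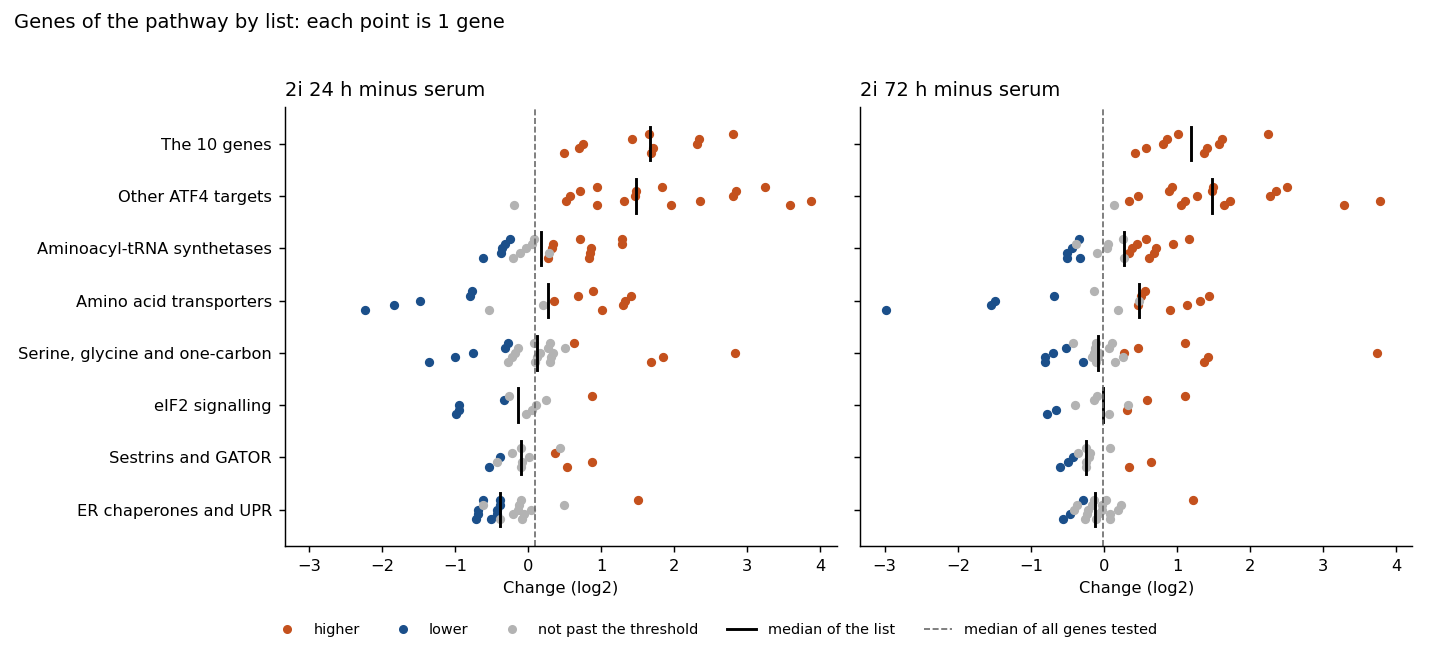
Each point is the log2 change of 1 tested gene from serum (horizontal axis) at 24 h (left) and 72 h (right), by list (vertical axis), coloured by the limma call, with the list median in black and the median of all tested genes dashed. The 10 genes and the other ATF4 targets lie to the right, with 24 h medians of 1.67 and 1.48, and the endoplasmic reticulum list has a median of -0.38.

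Markers of cell state moved over the same hours. Of 10 pluripotency markers, all of them tested, 6 were higher and 2 lower at 6 h, 6 and 1 at 24 h (3 and 3 after quantile normalization), and 7 and 1 at 72 h, and their summed linear level was 963 to 1020 in serum and 1340 to 1670 at 72 h. Of 11 differentiated and fibroblast markers, 5 were tested, and 1, 4 and 5 were lower at 6, 24 and 72 h. Their summed level over all 11 fell from 38.5 to 39.3 in serum to 13.1 to 15.9 at 72 h, with Mixl1, Fgf5, Pax6, Neurog2, Col1a2 and Col3a1 under the filter. Of 7 primitive endoderm markers Dab2 alone passed the filter, and the sum was 4.66 to 4.95 in serum and 3.80 to 4.61 at 72 h. These markers did not move together. Under the filter, the 72 h libraries lay above serum for Gata4 (means -0.70 and 0.22) and Sox17 (-2.27 and -1.68). They lay below it for Sox7 (-1.69 and -2.55), and overlapped with it for Gata6, Pdgfra and Foxa2. In these bulk samples fewer cells of a type and less RNA per cell cannot be told apart, and the part of these markers in the results was not tested.

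H3K9me2, a mark laid down by G9a and GLP and found over repressed and late-replicating chromatin, was low over most of the 10 genes. In each of the 6 bound libraries 8 or 9 of the 10 lay under the median of all 23602 genes in bound over input, with members' medians of -2.85 and -3.22 in serum against -0.87 and -0.97 for all genes on the log2 scale. All 10 had passed the filter on expression, while the 23602 genes include rows that did not. A comparison with expressed genes alone, or with genes of like span, was not made. Phgdh was the most marked, at -0.52 and -0.49 in serum, and Shmt2 the least, at -4.23 and -4.58. At 24 h in 2i, when all 10 mRNAs were higher, the limma test called 0 of 23602 genes changed in H3K9me2 (0% of the background). An unadjusted p under 0.05 was found for 2758 genes, 2 of them members. The members' log2 changes ran from -0.02 for Phgdh, the only negative value, to 1.2 for Shmt2. Ddit3 was at 0.96, Trib3 at 0.72 and Asns at 0.41, where the median of all genes was -0.03. Shmt2, Trib3 and Ddit3 had low serum values, given below, so the size of their changes is uncertain. With 2 libraries per condition, the lack of calls does not show that the mark was unchanged.

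In LT2i the mark was lower over 5 of the 10 genes, against 49.4% of all genes called lower and 6.06% called higher. The bound signal over Chac1 was 3.35 and 3.21 in serum, 3.44 and 3.31 at 24 h, and 0.74 and 0.91 in LT2i, a log2 change of -2.46 (SE 0.16, adjusted p = 0.00142). Asns went from 2.64 and 2.79 to 1.26 and 1.63 (-1.27, adjusted p = 0.00619), and Mthfd2 from 2.19 and 1.63 to 0.83 and 0.71 (-1.14, adjusted p = 0.0136). For Phgdh and Psat1 the changes were -1.01 and -0.93 (adjusted p = 0.00869 and 0.00436). The serum and LT2i libraries did not overlap for these 5, where the median change of all genes was -0.60. The values are log2 reads per 2-kb bin, with 0.9 reads entered for an empty bin. In LT2i those of Chac1 and Mthfd2 lay near that floor, with Asns not far above. The serum values of Shmt2 (0.59 and 0.23) and Trib3 (1.12 and 0.56) were near it too, with those of Ddit3 (1.27 and 1.13) not far above. Little room for a fall was left in these genes. Changes to or from such values rest on few reads, and their size is uncertain. Atf4, Trib3, Ddit3, Shmt2 and Sesn2 had changes of -0.70 to 0.38 that did not pass the test. Relative to the median of each library, Chac1 alone stayed lower (-1.56, adjusted p = 0.0011), Asns, Psat1, Phgdh and Mthfd2 were not called (-0.37 to -0.03), and Shmt2 was called higher (1.28, adjusted p = 0.0307). In the bins around the gene start none of the 10 was called. The Mthfd2 call was also lost without serum library 1 or LT2i library 2, and without LT2i library 2 Atf4 was called lower (-1.33, adjusted p = 0.0449). RNA of LT2i cells was not analysed here.

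**Figure D5:**
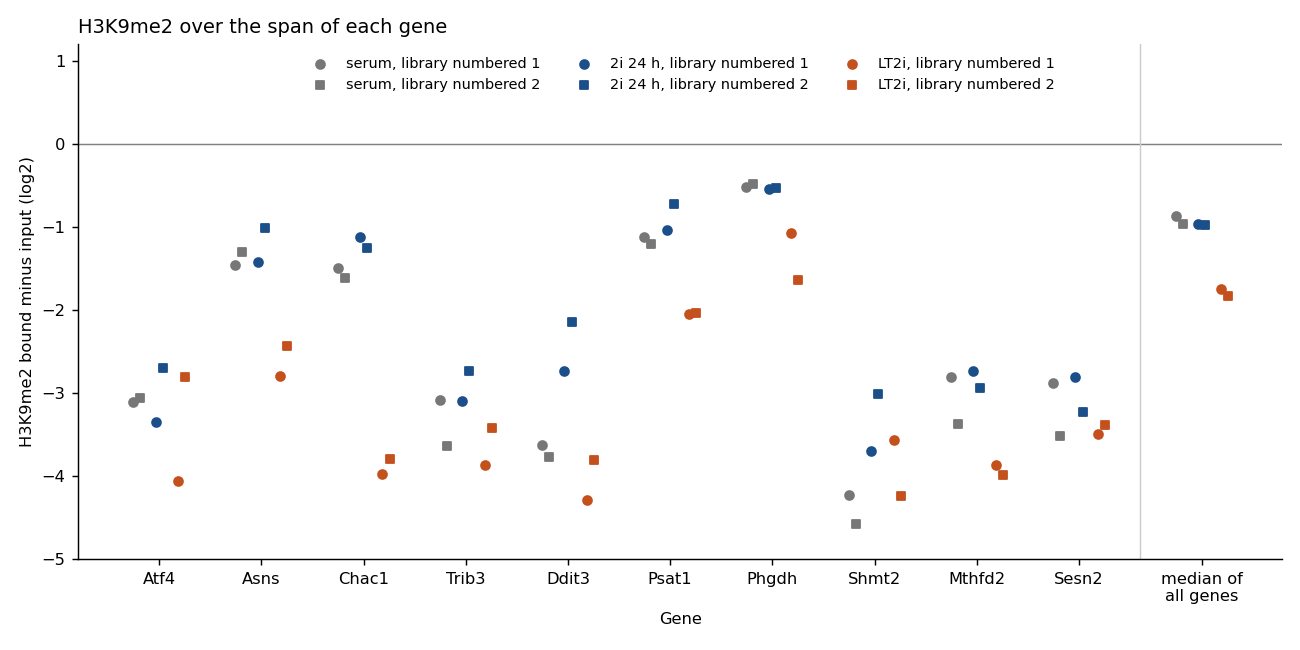
H3K9me2 bound over input on the log2 scale (vertical axis) over the span of each gene (horizontal axis), with 1 point for each of 6 libraries and, at the right, the median of 23602 genes in each. Chac1 moves from -1.49 and -1.62 in serum to -3.97 and -3.79 in LT2i, and the median of all genes from -0.87 and -0.97 to -1.75 and -1.83.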

How the data were processed

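The authors' expression table holds log2 values per gene for 12 RNA-seq libraries (TruSeq RNA v2, 50-base single-end reads), and the deposited ChIP-seq table holds log2 reads per 2-kb bin for 6 H3K9me2 and 3 input libraries. TopHat2 2.0.11, Bowtie2 and the build GRCm38 are named in the submitters' processing notes, without roles; how reads were turned into values is stated in none of the sources used here. From the values, the expression table was corrected for depth and gene length and set to a common 75th percentile (2.51 in each library), so total reads are unknown and no counting error can be given; replicate spread is the only error.

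Columns were matched to samples by title, and 0 columns were left out. Rows with a mean log2 value of 0 or more (11376 of 25965) were fitted in 1 limma model (limma 3.58.1, R 4.3.3) over all 12 libraries, with a mean-variance trend, 5 contrasts and Benjamini-Hochberg adjustment over all tested genes; a gene was called at adjusted p under 0.05. For ChIP-seq, bins overlapping each gene span were averaged on the linear scale, returned to log2 and fitted by limma over the 6 bound libraries. The scripts were tested on simulated data. No test for these tables is given in the sources used here.

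The 10 genes and the other lists were chosen with earlier results of these data known. Named genes were all members and, for each list, the 3 tested genes with the greatest absolute change at any time among those called. A set listed by symbol in advance (such as Psph, Tdh and Hspa5) and the 3 genes outside the 10 nearest each member were also named. Other names were chosen after their values were seen. Same-numbered libraries deviated together in 15 of 18 pairs (r over 0.1), with r from -0.324 to 0.851. Because this did not hold for every pair, the main fit did not treat the numbers as pairs. It did hold for numbers 1, 2 and 3 between serum and 6 h (r = 0.405, 0.256 and 0.665) and between serum and 24 h (0.33, 0.132 and 0.535). A fit with the number as a block is therefore given among the alternatives. Alternatives were quantile and median scaling, filters, a minimum fold, removal of the gene span trend, fits on the libraries compared only, a replicate block and leaving out libraries. Bisulfite data were not used here, since their build has no annotation at hand. Sequences are from RefSeq; 10 of 10 genes matched.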

Additional observations from a re-analysis of the deposited data

Results flagged for a closer look

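The change from serum differed between neighbouring times for 9 of the 10 genes, by the limma test of the step itself. Over all tested genes 31.5% were called higher and 28.0% lower from 6 to 24 h, and 15.2% and 14.6% from 24 to 72 h. From 6 to 24 h the log2 steps were 0.96 for Atf4, 1.24 for Asns, 1.24 for Chac1, 0.86 for Trib3, 0.74 for Ddit3, 1.07 for Psat1, 1.41 for Phgdh, 0.38 for Shmt2 and 0.49 for Mthfd2. From 24 to 72 h they were 0.58 for Asns, -0.74 for Chac1, -0.75 for Trib3, -1.41 for Ddit3 and -0.85 for Phgdh. Single outlying libraries were not tested within these groups of 3 and 2.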

How the results depend on the processing

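All 10 genes kept a positive change from serum at all 3 times under every alternative tried. Counts over the 11376 genes, in either direction, were 1621, 7131, 5743, 6766 and 3388 for 6, 24 and 72 h against serum, 24 against 6 h and 72 against 24 h. Requiring a log2 change of 1 gave 463, 2850, 2038, 2311 and 841 genes, and 3 members at 6 h, 6 at 72 h, 4 for 24 against 6 h and 1 for 72 against 24 h, by construction. At 24 h against serum the calls of Shmt2 (0.70), Mthfd2 (0.75) and Sesn2 (0.49) were lost. A mean log2 of 2 or more left fewer genes to test and gave 880 at 6 h, 3801 at 72 h and 2088 for 72 against 24 h. Fits on only the libraries compared gave 3239 at 6 h and 1212 for 72 against 24 h, with 2 members. Leaving out 1 library gave 1042 to 2115 genes at 6 h and 2011 to 6197 for 72 against 24 h, and 3 to 7 members in that step: the count rose to 6197 without 24 h library 3 and fell to 2205 and 2011 without 24 h library 2 and 72 h library 1. Dropping number 3 from all groups, added after seeing the data, gave 5399. The causes were not tested.

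With the replicate block, 72 against 24 h gave 5288 genes, 7, 10 and 10 members were called higher at 6, 24 and 72 h (8.24%, 33.6% and 24.5% of all tested genes without the block), and Psat1 (0.34, adjusted p = 0.0249) and Shmt2 (0.33, adjusted p = 0.034) were called at 6 h and Atf4 and Psat1 lower at 72 against 24 h (adjusted p = 0.0338 and 0.00669). What the numbers stand for is not given, and same-numbered libraries deviated together in 15 of 18 pairs, so these calls depend on whether the numbers mark pairs.

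Reversed steps from 24 to 72 h were those of Atf4 (0.12 by quantile, 0.01 without the span trend), Mthfd2 (0.01 without the span trend) and Sesn2 (0.07 under both, 0.01 without number 3, and -0.20 to 0.01 without 1 library), none of them called; the Shmt2 step from 6 to 24 h became -0.05 without the span trend. For H3K9me2 in LT2i, 13098 genes became 3173, and 5 members 0, in bins around the start, where Trib3 (0.19), Ddit3 (0.19), Sesn2 (0.96) and Shmt2 (-0.20) changed sign; median centring left 2 members, 1 of them Shmt2 in the other direction, and gave uncalled positive values for Atf4 (0.20), Trib3 (0.85), Ddit3 (0.56) and Sesn2 (0.50). Leaving out 1 ChIP-seq library gave LT2i changes of -0.33 to 0.24 for Trib3. Total reads are unknown, so depth behind low values such as Ddit3 in serum cannot be weighed.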
